A study of Mus musculus with 20 samples.

Results

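The genes described here are 39 DNA repair genes of the mouse, among 38561 genes counted in single bone marrow cells. They were taken by symbol from the Fanconi pathway (10 genes), homologous recombination (19 genes), end joining (6 genes), and mismatch and base excision repair (4 genes), and each symbol matched 1 Ensembl identifier. The cells came from C57BL/6J mice and were sequenced with Quartz-Seq, in which the mRNA of a lone cell is reverse transcribed and PCR-amplified. By the labels, 9 cells were free of lineage markers, positive for cKit and CD150 and negative for CD48 (CD150+CD48- cells), and 11 were free of lineage markers, positive for cKit and negative for CD150 (CD150- cells). CD150 without CD48 is a gate used to enrich blood stem cells. The CD150- label names no gate on CD48 or Sca-1, so those cells can include progenitors of several lineages. No treatment, altered genotype, age or animal is named for either group. Cells are called by the codes of their titles, which begin with A or B in the CD150+CD48- group and with C or D in the CD150- group. The sources used here do not say what the letters mark, and a batch marked by them and the sort cannot be told apart. Cells are not replicates and no animal is named, so each group was 1 sample, no test between groups was made, and the differences carry no replicate error.

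Fanconi proteins repair crosslinks between DNA strands: a core complex attaches ubiquitin to the clamp of FANCD2 and FANCI, which then directs cutting and repair at a stalled replication fork. Homologous recombination copies the sister chromatid to mend a break, and so works in S and G2 phase, whereas classical end joining rejoins broken ends at any time of the cell cycle. Mismatch repair corrects errors of replication, and base excision repair replaces single damaged bases. Inherited loss of Fanconi genes leads to bone marrow failure with loss of blood stem cells.

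The CD150+CD48- cells had 660007 to 3722713 gene reads each and the CD150- cells 996440 to 5776125, and each cell was thinned to 660007 gene reads, at which 1 read is 1.515 counts per 1000000 (CPM). In A10 and A11, 80.2% and 66.2% of all reads were unaligned, and in B4, which had 730221 gene reads, 46.3%. At equal depth B4 had reads of 4750 genes, the fewest of any cell. Genes of red cell precursors stood at 9503 to 22870 CPM, summed over 15 genes, in 7 CD150- cells (C6, C9, C10, C12, D4, D5 and D8), at 162.1 to 2495 CPM in the other 4 (D3, D9, D11 and D12), and at 225.8 to 3059 CPM in CD150+CD48- cells. The CD150- cells were therefore not alike, and values of the members are given below for these 7 and 4 cells as ranges, divided at 5000 CPM, a level chosen after the values were seen. Of 14 blood stem cell genes past the read filter, 10 were at least 2-fold higher in CD150+CD48- cells (71.4%, beside 21.6% of all genes) and none was lower (beside 27.0%). Their sum over 15 genes was 1176 to 7097 CPM in CD150+CD48- cells, 2612 to 5567 CPM in the 4 other CD150- cells, inside that range, and 130.3 to 487.9 CPM in the 7 CD150- cells with high red cell markers. Reads below are thinned reads, and a cell with none of a gene can hold some in the deposited counts.

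Most of the 39 members were read in a smaller share of CD150+CD48- cells than of CD150- cells. Of the 38 with enough reads, 20 were at least 2-fold lower in CD150+CD48- cells, 52.6% beside 27.0% of all genes with enough reads. The members were chosen with earlier results of these data known. Of 71 other repair genes, described below, 67 had enough reads and 32.8% of these were lower. A CD150+CD48- cell had reads of 5 to 29 members, with a median of 10, and a CD150- cell of 11 to 35, with a median of 28. Without thinning the medians were 13 and 28. A median of 44.1% and 67.7% of all genes past the filter were read per cell in the same groups, so members were not alone in being read less often. Of the 39 members, 34 had reads in a smaller share of CD150+CD48- cells than of CD150- cells and 5 in a larger share. The mean difference in share was -27.5 percentage points over members past the filter, beside -10.6 over all genes past it.

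The low counts of members in CD150+CD48- cells did not hold for every cell. B9 had reads of 29 members, A8 and B11 of 23 each, B4 of 14, A3 and A10 of 10 each, B12 of 7, A11 of 6 and B3 of 5. Among CD150- cells, the 7 with high red cell markers had reads of 23 to 35 members, and D12, D11, D3 and D9 had reads of 23, 13, 12 and 11. The range of the 4 other CD150- cells thus lay inside that of the CD150+CD48- cells. The share of members read exceeded the share of all filtered genes read in 7 of the 7 CD150- cells with high red cell markers, by 4.87 to 16.8 percentage points. It was below that share in the other 4 CD150- cells, by -22.2 to -8.75 points, and in 8 of 9 CD150+CD48- cells. B9 was the exception, with members 5.43 points above all genes.

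**Figure D1:**
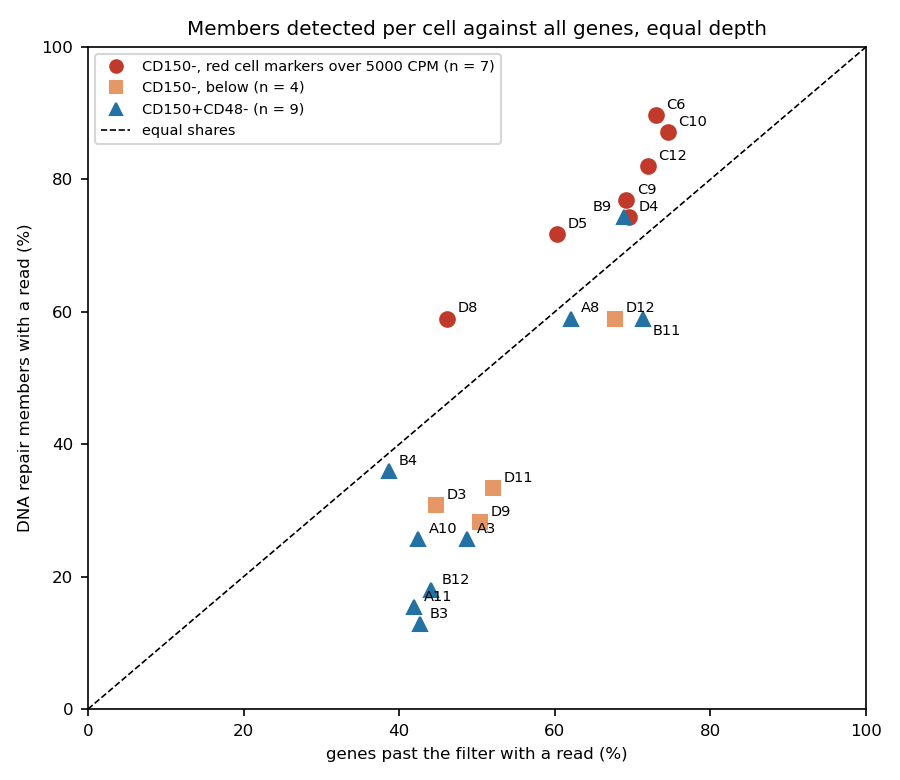
Percent of the 39 members with a read (vertical axis) against percent of all 11358 genes past the filter with a read (horizontal axis), for each of 20 cells at equal depth, with the dashed line marking equal shares. The 7 CD150- cells with red cell markers over 5000 CPM and the CD150+CD48- cell B9 lie above the line, and the other 12 cells lie below it.

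Levels were compared for genes that had 10 or more thinned reads in all and were read in 3 or more cells, which 38 members met. Rad51b did not, with 46 reads, 27 in B11 and 19 in C12. Fanca and Lig4 passed this filter through reads of CD150- cells alone, so they could only come out lower in CD150+CD48- cells. A level is the CPM over the summed reads of a group, and a log2 fold is CD150+CD48- over CD150- after adding 1 CPM to each, which understates differences of low genes. Intervals are exact at 95% and cover the counting of reads alone; reads are PCR copies and not independent molecules. Of the 38 members, 20 were at least 2-fold lower in CD150+CD48- cells (52.6%), against 27.0% of all 11358 genes past the filter. A further 4 were at least 2-fold higher (10.5%), against 21.6% of all genes, and 14 were within 2-fold. Without A10 and A11, 19 members were lower and 4 higher. The median log2 fold was -1.08 for members and -0.09 for all genes, at similar median levels over all cells of 33.6 and 37.4 CPM. Summed over the 39 members, the level was 1575 CPM in CD150+CD48- cells and 2500 CPM in CD150- cells.

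Much of a member's level came from few cells. In CD150+CD48- cells, 26 members had more than 50% of their reads in 1 cell, and in CD150- cells 12 had. Accordingly, 13 of the 24 members past 2-fold remained so whichever cell was left out, and 3 changed sign: Fancl without C9, and Palb2 and Ung without B4. Members within 2-fold depended on single cells too. Leaving out 1 cell put Fancf at -3.71 (A8), Chek2 at -4.97 (A10), Rad51d at -3.17 (A10) or 2.07 (D12), and Xrcc4 at -2.18 (A11) or 1.28 (D9). It also put Fancc at 1.69 (D9), Fancg at 1.06 (D8), Rad54l at 1.24 (C9) and Xrcc1 at 1.08 (C9). Counting each cell alike, as the mean over cells of log2(CPM + 1), put 63.2% of members and 36.4% of all genes at least 2-fold lower, and no member and 14.1% of all genes higher. Scaling by ERCC spike-in reads put 71.1% of members and 48.2% of all genes lower, and 5.26% and 15.4% higher.

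**Figure D2:**
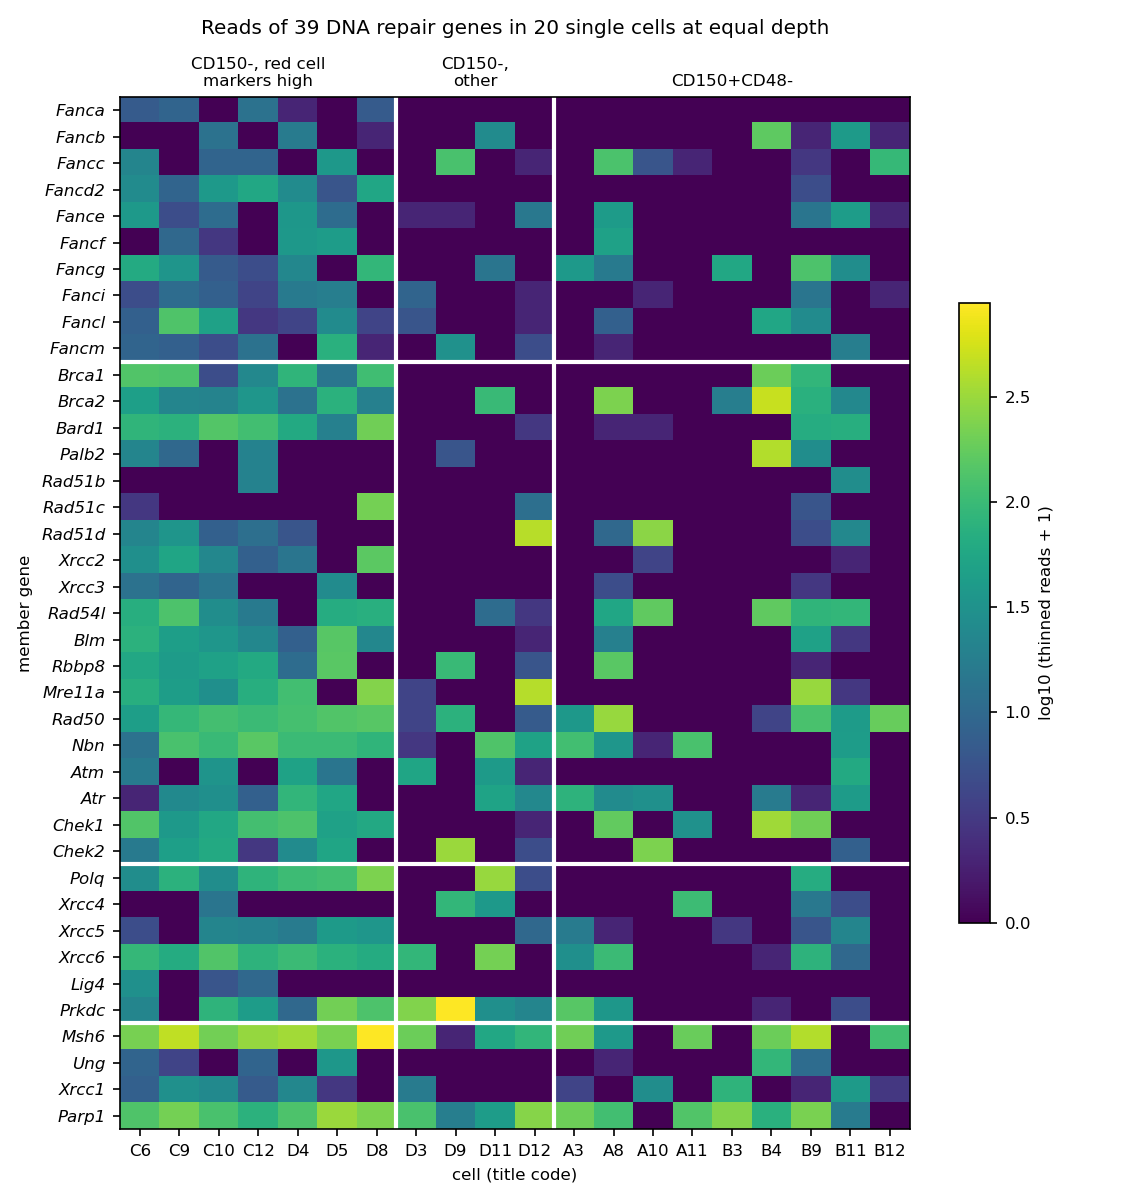
Thinned reads of the 39 members (rows, by pathway) in 20 cells (columns), colored as log10 of reads plus 1 on a shared scale, with white lines between pathways and between the 7 CD150- cells with high red cell markers, the other 4 CD150- cells and the 9 CD150+CD48- cells. Reads fill most of the left block, and 9 members have no read in the middle block of only 4 cells. In each of these 4 cells 44.8% to 67.7% of all genes past the filter were read. The share of all genes with no read in these 4 cells was not counted.

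Promoters of 5 members are shown because lower members were found in each of the pathways. Whether members vary together across cells was not tested. Of those with a RefSeq promoter, the 3 lower members with the most reads were taken, and the 2 with the most reads among the others past the filter. Each promoter is 300 bases of GRCm38 (RefSeq, GRCm38.p6), from 250 before to 50 after the start of transcription, written 5′ to 3′ in the direction of the gene. Msh6 (chr17:87974800-87975099, plus strand), Xrcc6 (chr15:82016119-82016418, plus strand) and Mre11a (chr9:14784404-14784703, plus strand) were at least 2-fold lower in CD150+CD48- cells. Parp1 (chr1:180568641-180568940, plus strand) and Chek1 (chr9:36726609-36726908, minus strand) were within 2-fold. With 1 cell left out, the log2 fold of Msh6 came to -0.74 (D8) and that of Mre11a to -0.71 (D12), within 2-fold. Capitals mark an E2F motif (TTTCCCGC or its reverse complement) or a CCAAT box (CCAAT or its reverse complement).
Msh6: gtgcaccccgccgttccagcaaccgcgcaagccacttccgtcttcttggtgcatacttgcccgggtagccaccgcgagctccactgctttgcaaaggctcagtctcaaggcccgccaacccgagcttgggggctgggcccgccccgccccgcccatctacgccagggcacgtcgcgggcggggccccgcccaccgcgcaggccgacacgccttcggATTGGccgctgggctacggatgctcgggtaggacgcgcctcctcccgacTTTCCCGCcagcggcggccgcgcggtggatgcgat
Xrcc6: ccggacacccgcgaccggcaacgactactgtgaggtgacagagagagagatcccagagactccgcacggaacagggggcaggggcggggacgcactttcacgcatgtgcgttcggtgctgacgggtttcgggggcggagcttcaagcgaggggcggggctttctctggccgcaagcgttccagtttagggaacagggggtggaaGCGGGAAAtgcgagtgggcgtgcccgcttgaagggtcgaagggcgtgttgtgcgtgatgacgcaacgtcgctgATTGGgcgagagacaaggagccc
Mre11a: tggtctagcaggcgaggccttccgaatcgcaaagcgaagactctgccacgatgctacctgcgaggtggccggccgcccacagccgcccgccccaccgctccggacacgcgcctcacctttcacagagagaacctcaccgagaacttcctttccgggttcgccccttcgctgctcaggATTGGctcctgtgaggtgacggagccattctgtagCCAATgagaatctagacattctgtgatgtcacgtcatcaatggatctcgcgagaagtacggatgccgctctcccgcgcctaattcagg
Parp1: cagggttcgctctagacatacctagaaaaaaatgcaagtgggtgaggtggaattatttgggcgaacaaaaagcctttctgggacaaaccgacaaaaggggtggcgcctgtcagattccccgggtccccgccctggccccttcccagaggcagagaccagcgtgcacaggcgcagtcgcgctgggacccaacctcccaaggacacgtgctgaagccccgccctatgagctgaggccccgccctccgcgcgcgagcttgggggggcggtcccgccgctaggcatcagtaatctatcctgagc
Chek1: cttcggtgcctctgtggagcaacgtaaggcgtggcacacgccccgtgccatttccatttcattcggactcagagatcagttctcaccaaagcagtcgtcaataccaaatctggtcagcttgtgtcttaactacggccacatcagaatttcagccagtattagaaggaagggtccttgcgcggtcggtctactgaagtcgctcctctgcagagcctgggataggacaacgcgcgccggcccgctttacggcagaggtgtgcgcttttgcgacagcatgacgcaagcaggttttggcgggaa

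Msh6 had an E2F motif 15 bases after the start and a CCAAT box 34 bases before it. Xrcc6 had an E2F motif 46 bases before the start and a CCAAT box 27 bases after it, and Mre11a had CCAAT boxes 73 and 38 bases before. No searched motif was complete in the windows of Parp1 and Chek1. The Chek1 window ends in gcgggaa, so an E2F motif GCGGGAAA cut by its edge would be missed. The split seen in these 5 windows does not hold over the members: Brca2, which was at least 2-fold higher and had more reads than Xrcc6, has an E2F motif 168 bases before its start. RefSeq promoters were matched for 32 members, 36 promoters in all, and Fancd2, Rad51d, Xrcc2, Rbbp8, Rad50, Nbn and Prkdc had none matched. On both strands, E2F was searched as TTTCCCGC, TTTGGCGC, TTTCGCGC or TTTGCCGC, the cell cycle homology region CHR, a motif of genes of G2 and mitosis, as TTTGAA or TTCGAA, and the CCAAT box as CCAAT. E2F was in 8 of the 36 promoters (22.2%), of Bard1, Fancg, Chek2, Brca2, Rad51c, Xrcc6 and Msh6, beside 2.26% of all 32851 promoters. CHR was in 11.1% of the members' promoters and 19.2% of all, and CCAAT in 58.3% and 37.4%. Counted by gene, E2F was in promoters of 4 of the 15 members lower in CD150+CD48- cells and of 3 of the other 16 past the filter. By promoter, in the same order, the shares were 29.4% and 17.6% for E2F, with both promoters of Rad51c among the former, 11.8% and 5.88% for CHR, and 52.9% and 58.8% for CCAAT. These are matches of letters in a window, not measured binding.

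Positions of genes below are those of GENCODE M21 on GRCm38. Among the 10 Fanconi genes, 5 were at least 2-fold lower in CD150+CD48- cells, 1 was higher and 4 were within 2-fold, with a median log2 fold of -0.79. Their summed level was 163.0 CPM in CD150+CD48- cells and 186.6 CPM in CD150- cells. Both clamp genes, Fancd2 and Fanci, and Fancm, the DNA translocase that anchors the complex on chromatin, were lower. Of the 7 core complex genes, 2 were lower (Fanca and Fancl), 1 was higher (Fancb), and 4 were within 2-fold (Fancc, Fance, Fancf and Fancg), and their summed level was 156.7 CPM against 129.5 CPM.

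Fancd2 (ENSMUSG00000034023, chr6:113531682-113597017), the clamp subunit best known as the ubiquitin target, had 0 to 57 thinned reads per CD150- cell with a median of 8, and 4 reads in 1 CD150+CD48- cell, B9. All 7 CD150- cells with high red cell markers had Fancd2 reads, 5 to 57 each, and D3, D9, D11 and D12 had none. The group levels were 0.673 CPM (0.184 to 1.72) and 29.1 CPM (25.3 to 33.3), a level 43.2-fold lower (16.6 to 160) in CD150+CD48- cells, and its log2 fold of -4.17 was -4.91 without B9. Fanci, its partner in the clamp, had 13 of its 15 reads in CD150+CD48- cells in B9, beside 65 reads over 8 CD150- cells, and its log2 fold of -1.50 was -2.85 without B9. Both clamp genes were read together in B9 alone of the 9 CD150+CD48- cells and in 6 of 11 CD150- cells. Fancm had 18 reads in CD150+CD48- cells, 17 of them in B11, and 139 over 8 CD150- cells, 73 of them in D5. Its log2 fold of -2.32 lay between -4.08 without B11 and -1.45 without D5.

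In the core complex, Fancl (ENSMUSG00000004018, chr11:26386135-26471876), the ubiquitin ligase subunit, had 0 to 134 reads per CD150- cell with a median of 3, and 7 in A8, 55 in B4, 25 in B9 and none in the other 6 CD150+CD48- cells. The groups overlapped, and C9 alone held 134 of the 228 reads of CD150- cells. The level was 2.14-fold lower in CD150+CD48- cells (1.67 to 2.78), and the log2 fold went from -1.05 to 0.038 without C9. Fanca, a scaffold subunit, had no thinned read in CD150+CD48- cells, where the deposited counts hold 4 reads in B9. It had 33 thinned reads over 5 CD150- cells, through which alone it passed the filter. Its level was at least 9.00-fold lower in CD150+CD48- cells when 3 reads are set as the floor of that group. Fancb (ENSMUSG00000047757, chrX:164980592-164997272), which dimerizes the ligase module, was at 34.2 CPM (29.6 to 39.2) in CD150+CD48- cells and 7.44 CPM (5.59 to 9.71) in CD150- cells. Of its 203 reads in CD150+CD48- cells B4 held 162 and B11 held 39, and 12, 16, 1 and 25 reads were in C10, D4, D8 and D11. The level was 4.60-fold higher (3.39 to 6.32), and the log2 fold of 2.06 was 0.055 without B4.

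The 2 Fanconi genes with the most reads were within 2-fold. Fancg (ENSMUSG00000028453, chr4:43002343-43010506), a scaffold subunit, had 0 to 133 reads with a median of 15 in CD150+CD48- cells and 0 to 87 with a median of 6 in CD150- cells. B9 and D8 were highest, and the groups overlapped, at 45.5 CPM (40.2 to 51.2) and 31.3 CPM (27.3 to 35.6). Fancc (ENSMUSG00000021461, chr13:63285043-63497278), which with Fance and Fancf forms the substrate-binding module, had 128 reads in A8, 92 in B12, 5 in A10, 2 in B9 and 1 in A11. In CD150- cells D9 held 123 of the 197 Fancc reads, and 6 cells had any. Fance was at 16.0 and 15.6 CPM, and Fancf had all its 48 CD150+CD48- reads in A8.

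Of the 18 homologous recombination genes past the filter, 9 were at least 2-fold lower in CD150+CD48- cells, 2 were higher and 7 were within 2-fold, with a median log2 fold of -1.002. The summed level was 902.9 CPM in CD150+CD48- cells, with 25.8 in B3 and 2445 in B4 at the ends, and 1123 CPM in CD150- cells, from 92.4 in D3 to 2018 in D8. Lower members were found among the genes of end resection (3 of 4), the group of Rad51b, Rad51c, Rad51d, Xrcc2 and Xrcc3 (3 of the 4 past the filter) and the motor and helicase genes (1 of 2). Among the 4 genes of damage signalling kinases 1 was lower and 3 were within 2-fold, and among the 4 genes of BRCA proteins 1 was lower and 2 were higher.

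MRE11, RAD50 and NBN form the complex that senses a break and starts resection, and their genes differed from each other. Mre11a (ENSMUSG00000031928, chr9:14784654-14837123), the nuclease, had reads in 2 CD150+CD48- cells, 312 in B9 and 2 in B11, and 0 to 417 reads with a median of 43 in CD150- cells, where D12 was highest. The group levels were 52.9 CPM (47.2 to 59.0) and 136.6 CPM (128.3 to 145.4), 2.59-fold lower in CD150+CD48- cells (2.27 to 2.94). The log2 fold of -1.35 was -0.71 without D12 and -6.64 without B9, so 1 cell in each group set its size. Nbn (ENSMUSG00000028224, chr4:15957925-15992589), which recruits the complex, had 0 to 124 reads with a median of 1 in CD150+CD48- cells, where A3 and A11 exceeded 100, and 0 to 154 with a median of 99 in CD150- cells. Reads were present in 5 of 9 and 10 of 11 cells, and the level was 2.26-fold lower in CD150+CD48- cells (1.98 to 2.58), and its log2 fold of -1.16 was -0.99 without B3. Rad50 (ENSMUSG00000020380, chr11:53649519-53707319), the ATPase that tethers the ends, had 0 to 310 reads with a median of 36 in CD150+CD48- cells, highest in A8, and 0 to 152 with a median of 90 in CD150- cells. Its levels were 116.8 CPM (108.3 to 125.9) and 115.8 CPM (108.1 to 123.9), a ratio of 1.01 (0.911 to 1.12). Reads of all 3 genes were found in 8 of 11 CD150- cells and in 1 CD150+CD48- cell, B11. Per kilobase of exon, Nbn was at 20.7 and 46.7 CPM, Mre11a at 8.92 and 23.1, and Rad50 at 21.7 and 21.6, in CD150+CD48- and CD150- cells. Exon length here and below joins all annotated exons of a gene, whichever transcript is present, so such values compare genes only roughly. Rbbp8, the resection factor CtIP, had 155 of its 156 CD150+CD48- reads in A8, and its log2 fold of -1.28 was -5.79 without A8 and -0.85 without D5.

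The BRCA proteins prepare resected DNA for strand exchange with the sister chromatid. Bard1, the partner of BRCA1 in a ubiquitin ligase, was at 23.1 CPM in CD150+CD48- cells and 95.7 CPM in CD150- cells, and its log2 fold of -2.01 was -2.80 without B11. Brca1 was read in B4 (189 reads) and B9 (86 reads) and in each of the 7 CD150- cells with high red cell markers (4 to 140 reads), and its log2 fold of -0.58 lay between -2.03 without B4, past 2-fold, and -0.255 without C6. Reads of both Brca1 and Bard1 were found in B9 and in those same 7 CD150- cells. Brca1 had no read in D3, D9, D11 and D12.

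Brca2 and Palb2 went the other way, with most of their reads in B4. Brca2 (ENSMUSG00000041147, chr5:150522630-150570329), a mediator of strand exchange, had 0 to 497 reads with a median of 17 in CD150+CD48- cells, 497 in B4 and 232 in A8, and 0 to 97 with a median of 20 in CD150- cells. The group levels of 141.6 CPM (132.2 to 151.5) and 44.2 CPM (39.5 to 49.3) made a 3.20-fold higher value (2.81 to 3.65), and the log2 fold of 1.66 was 0.55 without B4. It was read in 5 of 9 and 8 of 11 cells. Palb2 (ENSMUSG00000044702, chr7:122107262-122132985), the bridge between BRCA1 and BRCA2, had 404 reads in B4, 27 in B9 and none in the other 7 CD150+CD48- cells, so that B4 held 93.7%. In CD150- cells it had 21, 9, 19 and 5 reads in C6, C9, C12 and D9. The level was 9.76-fold higher in CD150+CD48- cells (7.34 to 13.2), and the log2 fold of 3.12 was -0.465 without B4. The direction of Palb2 thus rested on 1 cell.

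Rad51b, Rad51c, Rad51d, Xrcc2 and Xrcc3 encode related proteins that assist strand exchange, and Xrcc2 had the lowest log2 fold of the 38 members past the filter. Xrcc2 (ENSMUSG00000028933, chr5:25689812-25705825) had 3 reads in A10 and 1 in B11 and none in the other 7 CD150+CD48- cells. In CD150- cells it had 0 to 159 reads with a median of 7, with reads in 6 of the 7 cells with high red cell markers and none in the other 4 cells. The levels were 0.673 CPM (0.184 to 1.72) and 38.8 CPM (34.4 to 43.7), 57.7-fold lower in CD150+CD48- cells (22.3 to 213), and the log2 fold of -4.57 was -3.55 without D8. Rad51c had 5 reads in B9 and 223 over 3 CD150- cells, 210 of them in D8, and its log2 fold of -4.11 was -0.69 without D8. Xrcc3 had 6 reads over 2 CD150+CD48- cells and 58 over 4 CD150- cells, with a log2 fold of -2.16. Rad51d was within 2-fold as a group value, with 273 of its 309 CD150+CD48- reads in A10 and 425 of its 502 CD150- reads in D12.

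Blm, the helicase lost in Bloom syndrome, was at 11.3 CPM in CD150+CD48- cells and 49.2 CPM in CD150- cells, and its log2 fold of -2.03 lay between -3.39 without B9 and -1.39 without D5. Rad54l, a DNA motor protein of strand exchange, was at 93.8 and 53.7 CPM and within 2-fold. Chek1 (ENSMUSG00000032113, chr9:36708482-36727065), the checkpoint kinase activated by ATR at stalled forks, had 0 to 338 reads with a median of 0 in CD150+CD48- cells: 338 in B4, 203 in B9, 173 in A8, 30 in A11 and none in the other 5. In CD150- cells it had 0 to 139 reads with a median of 48, 37 to 139 in the 7 cells with high red cell markers and at most 1 in the other 4. The group values of 125.3 CPM (116.4 to 134.6) and 81.1 CPM (74.7 to 88.0) had a ratio of 1.54 (1.38 to 1.72), although the gene was read in 4 of 9 and 8 of 11 cells. Atm, the kinase activated by breaks, had all its 60 CD150+CD48- reads in B11, and its log2 fold of -1.38 was -4.85 without that cell. Atr was at 32.0 and 37.6 CPM, and Chek2, the kinase downstream of ATM, had 228 of its 235 CD150+CD48- reads in A10.

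**Figure D3:**
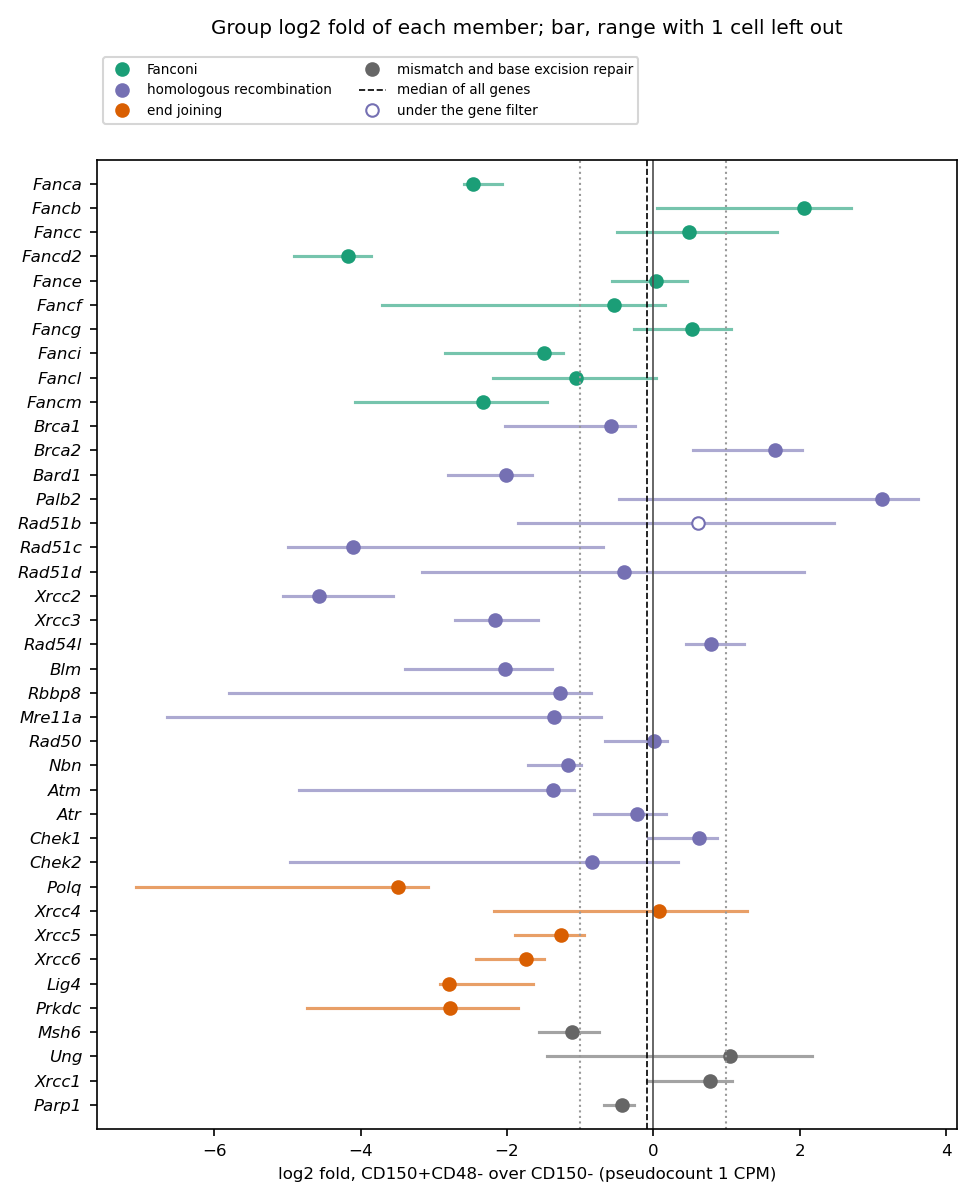
Log2 fold of each member (points, CD150+CD48- over CD150-, with 1 CPM added), colored by pathway, with bars from the lowest to the highest value when any 1 of the 20 cells is left out. Dotted lines mark 2-fold and the dashed line the median of all genes at -0.09; Polq and Xrcc6 lie left of 2-fold along their whole bar, and the bars of Palb2 and Ung cross 0.

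End joining had the lowest median log2 fold of the 4 pathways, -2.26, over only 6 genes. Of these, 5 were at least 2-fold lower in CD150+CD48- cells (83.3%, beside 27.0% of all genes), and none was higher, beside 21.6% of all genes. The summed level was 107.6 CPM against 529.3 CPM. It ran from 0 in A10 to 295.5 CPM in A3 among CD150+CD48- cells, and from 51.5 in D12 to 1438 CPM in D9 among CD150- cells, so the ranges overlapped.

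Ku, the ring that binds broken ends, is made of the products of Xrcc5 and Xrcc6. Xrcc6 (ENSMUSG00000022471, chr15:81987835-82040085) had 0 to 100 reads with a median of 1 in CD150+CD48- cells and 0 to 210 with a median of 79 in CD150- cells. The highest were A8 with 100 and D11 with 210, each of the 7 CD150- cells with high red cell markers had 63 to 137, and D9 and D12 had none. The group levels were 36.7 CPM (32.0 to 41.9) and 124.7 CPM (116.7 to 133.0), 3.40-fold lower in CD150+CD48- cells (2.93 to 3.96), and the log2 fold of -1.74 was -2.43 without A8. Xrcc5 was at 7.58 and 19.6 CPM, and its log2 fold of -1.26 lay between -1.89 without B11 and -0.95 without D5. Per kilobase of exon, Xrcc6 was at 8.20 CPM in CD150+CD48- cells and 27.9 CPM in CD150- cells. Reads of both Ku genes were in 4 of 9 CD150+CD48- cells and 6 of 11 CD150- cells.

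Prkdc (ENSMUSG00000022672, chr16:15637866-15842235), the catalytic subunit of the DNA-dependent protein kinase recruited by Ku, had 151 reads in A3, 35 in A8, 4 in B11, 1 in B4 and none in the other 5 CD150+CD48- cells. In CD150- cells it had 0 to 862 reads with a median of 41. The highest was D9, followed by D3 with 245, and all 4 CD150- cells with low red cell markers had reads. The levels of 32.2 CPM (27.8 to 37.1) and 226.6 CPM (215.8 to 237.8) made a 7.05-fold lower value (6.06 to 8.23), and the log2 fold of -2.78 was -1.85 without D9 and -4.73 without A3. Lig4, the ligase of end joining, had no read in CD150+CD48- cells, thinned or as deposited (0 of 9 cells). So few cells cannot show that Lig4 is absent there. In CD150- cells it had 43 reads, in C6, C10 and C12. The level was at least 11.7-fold lower in CD150+CD48- cells when 3 reads are set as the floor of that group. Lig4 passed the filter through CD150- cells alone, so it could only come out lower. Its log2 fold of -2.79 was -1.64 without C6. Xrcc4 (ENSMUSG00000021615, chr13:89774027-90089608), the scaffold of that ligase, had 102 of its 120 CD150+CD48- reads in A11, 14 in B9 and 4 in B11. In CD150- cells it had 13, 87 and 38 reads in C10, D9 and D11, and the groups were at 20.2 CPM (16.8 to 24.2) and 19.0 CPM (16.0 to 22.5).

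Polq (ENSMUSG00000034206, chr16:37011786-37095417), the polymerase of the alternative, theta-mediated end joining, had 65 reads in B9 and none in the other 8 CD150+CD48- cells. In CD150- cells it had 0 to 308 reads with a median of 76, 27 to 233 in the 7 cells with high red cell markers, 308 in D11, 4 in D12 and none in D3 and D9. The levels were 10.9 CPM (8.45 to 14.0) and 133.6 CPM (125.3 to 142.3), 12.2-fold lower in CD150+CD48- cells (9.49 to 16.0). The log2 fold of -3.50 was -7.07 without B9 and at most -3.08 whichever CD150- cell was left out.

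The mismatch and base excision repair members included the pair with the most reads of all 39. Msh6 (ENSMUSG00000005370, chr17:87975062-87990892), a mismatch-binding protein, had 0 to 398 reads with a median of 111 in CD150+CD48- cells and 1 to 879 with a median of 216 in CD150- cells. It was read in 6 of 9 and 11 of 11 cells, D8 was highest, the 7 CD150- cells with high red cell markers had 208 to 879, and the groups overlapped. The levels were 188.9 CPM (178.0 to 200.3) and 408.4 CPM (393.8 to 423.4), 2.16-fold lower in CD150+CD48- cells (2.02 to 2.32), and the log2 fold of -1.11 was -0.74 without D8. Parp1 (ENSMUSG00000026496, chr1:180568924-180601254), which senses strand breaks and makes poly(ADP-ribose), had 0 to 249 reads with a median of 113 in CD150+CD48- cells and 17 to 319 with a median of 133 in CD150- cells. It was the member read in most CD150+CD48- cells, 7 of 9, beside 11 of 11 CD150- cells, at 170.2 CPM (159.9 to 181.0) and 230.2 CPM (219.3 to 241.5). Per kilobase of exon, Msh6 was at 43.5 and 94.0 CPM and Parp1 at 32.2 and 43.5 CPM, in CD150+CD48- and CD150- cells. Ung (ENSMUSG00000029591, chr5:114130386-114139323), the glycosylase that removes uracil from DNA, had 87 reads in B4, 10 in B9 and 1 in A8, and 8, 3, 8 and 35 in C6, C9, C12 and D5. It was 2.22-fold higher in CD150+CD48- cells (1.58 to 3.15), and the log2 fold of 1.05 was -1.45 without B4. Xrcc1, the scaffold of single-strand break repair, was at 25.8 and 14.6 CPM and within 2-fold.

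Genes of the cell cycle were high in many, but not all, of the cells with high member levels. A list of 24 S phase genes stood at 9097 to 15490 CPM in the 7 CD150- cells with high red cell markers and at 942.4 to 1636 CPM in the other 4 CD150- cells. Among CD150+CD48- cells it was highest in B9 (14160 CPM), B4 (11250 CPM) and A8 (7062 CPM), at 4105 CPM in A10, and from 372.7 CPM in B12 to 2768 CPM in B3 in the other 5. The 3 highest of these were also the 3 CD150+CD48- cells with the highest summed member level, at 3062 CPM in B9, 3308 CPM in B4 and 2338 CPM in A8. Among CD150- cells the order differed. D9 had 2447 CPM of members, above C6, C10 and C12 (2362, 2289 and 2261 CPM), at an S phase sum of 1536 CPM. D12 had 2041 CPM of members at an S phase sum of 942.4 CPM. Prkdc alone held 53.4% of the member reads of D9, which had reads of 11 members, and Rad51d held 31.6% of those of D12. A list of 20 G2/M genes stood at 3497 to 7730 CPM in the 7 CD150- cells, at 0 to 266.7 CPM in the other 4, at 1508 CPM in B4, 430.3 CPM in B9 and 0 to 166.7 CPM in the other CD150+CD48- cells. As groups, 11 of 24 S phase genes were at least 2-fold lower in CD150+CD48- cells and 1 was higher (median log2 fold -0.85), and of the 20 G2/M genes 19 were lower, at a median of -4.60. The part of the cell cycle in the members' differences was not tested.

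**Figure D4:**
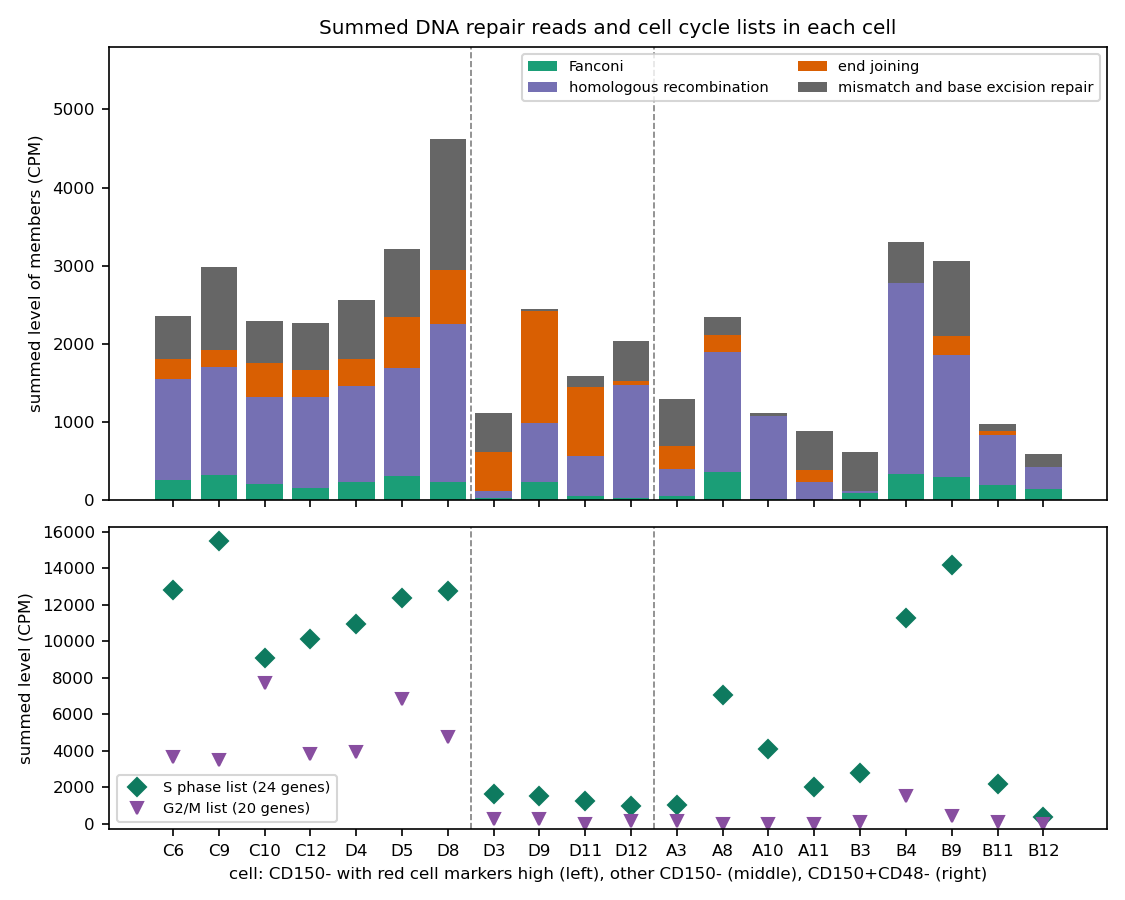
Upper panel, summed level of the members in each cell (CPM, stacked by pathway); lower panel, summed level of 24 S phase genes (diamonds) and 20 G2/M genes (triangles) in the same cells (CPM). B4, B9 and A8 are highest among CD150+CD48- cells in the upper panel and in the S phase list, and the 7 CD150- cells at the left are the highest for G2/M genes.

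Markers of other cells differed between the groups in some lists, and some of the sums rested on few cells. All 14 red cell precursor genes past the filter were at least 2-fold lower in CD150+CD48- cells, beside 27.0% of all genes, at a sum of 949.5 against 9930 CPM. Of 8 megakaryocyte genes past the filter, 7 were higher (87.5%, beside 21.6% of all genes) and 1 was lower, at sums of 728.4 against 65.0 CPM. Of the lists of neutrophil and monocyte, lymphoid, and stroma and endothelium genes, 2 of 10, 3 of 12 and 2 of 7 members passed the filter, and their sums were 414.8 against 121.9, 166.0 against 86.8 and 129.3 against 10.5 CPM. Gene reads per spike-in read were 109.3 to 302.1 in the 7 CD150- cells with high red cell markers, 12.7 to 43.8 in the other 4, and for CD150+CD48- cells 22.3 to 109.0. The part of cell type and of RNA amount in the members' differences was not tested.

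Other genes of DNA repair, 71 in number and none of them a member, gave a median nearer to that of all genes. Of 67 past the filter, 22 were at least 2-fold lower in CD150+CD48- cells (32.8%, beside 27.0% of all genes) and 13 were higher (19.4%, beside 21.6%). The other 32 were within 2-fold, and the median log2 fold was -0.48. The lowest were Top3a, a topoisomerase that acts with BLM, with 1 read against 205, Gen1, a nuclease that cuts Holliday junctions, with 1 against 77, and Eme1, a subunit of the nuclease MUS81-EME1, with 0 against 262. The level of Eme1 was at least 71.5-fold lower in CD150+CD48- cells when 3 reads are set as the floor of that group. Eme1 passed the filter through CD150- cells alone, so it could only come out lower, and D5 held 137 of its 262 reads. The highest were Neil1, a base excision glycosylase, with 248 reads against 20, Rmi2, a partner of BLM, with 142 against 13, and Ddb2, a sensor of ultraviolet damage, with 299 against 46. The log2 fold of Neil1, 3.51, was -1.91 without A10, which held all 248 reads, and that of Rmi2, 3.16, was 0.53 without B9, which held 126 of the 142. That of Ddb2, 2.81, lay between 2.24 without A3 and 4.19 without C9. Those of Top3a and Gen1 were -3.54 without D5 and -2.60 without D4, from -4.65 and -3.31.

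A gene that starts within 1000 bases of a member on the opposite strand can share its promoter region. Such a partner was found for 17 members, and 14 protein-coding partners passed the filter. Of these 14 partners, 3 were at least 2-fold lower in CD150+CD48- cells and 2 were higher, beside 6 lower among the members they lie next to. Over all genes past the filter, 27.0% were lower and 21.6% were higher. Mcm4, a subunit of the replicative helicase that starts 466 bases from Prkdc, was at 267.0 and 360.7 CPM, with a log2 fold of -0.43 beside -2.78 for Prkdc. Emc3, 30 bases from Fancd2, had a log2 fold of -1.05 (-0.70 without D12), and Abhd13, 21 bases from Lig4, of -1.87 (-1.02 without D11). Nbr1, 194 bases from Brca1, had a log2 fold of 1.15 (0.55 without A11). Ankrd49, 202 bases from Mre11a, had 1.05 (0.11 without A3), and both were opposite in sign to the member. Npat, a regulator of histone genes 307 bases from Atm, was at -0.84, and Hscb, 202 bases from Chek2, at -0.03.

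In the same annotation, 12 members share exon sequence with another protein-coding gene, among them Msh6 with Fbxo11, Xrcc6 with Desi1, Mre11a with Ankrd49, Fancd2 with Fancd2os, Fancl with Vrk2, Xrcc4 with Tmem167 and Fancc with a gene on the other strand. The sources used here do not give the strand setting of the counting, so the levels of these members are uncertain where reads fall in the shared stretch.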

How the data were processed

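Single cells were sequenced with Quartz-Seq, 9 sorted as CD150+CD48- and 11 as CD150-. Per the deposited files, values were raw read counts for each gene. Named in the submitters' processing notes are HTSeq, the build GRCm38 and R 3.0.2; the sources used here do not give the aligner, annotation release and strand setting. No molecular identifiers are recorded, so reads are PCR copies. Each cell's file held 38561 genes and 5 summary rows, which were kept out of all totals, as were spike-ins.

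Cells were thinned without replacement to 660007 gene reads, summed per group and given as CPM with exact Poisson intervals, and folds with exact conditional binomial intervals, at 95%. For members without a read in CD150+CD48- cells, a bound was set at 3 reads over that group (0.505 CPM). The filter of 10 thinned reads and 3 cells left 11358 genes, and a difference of at least 2-fold is reported as lower or higher. Symbols were matched for 36639 identifiers, positions come from GENCODE M21 and promoters from RefSeq. The steps, in Python 3.11.15 with numpy 2.4.6, pandas 2.3.3 and scipy 1.17.1, were tested on simulated data.

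The members and lists were chosen with earlier results of these data known. Members with values in each cell are those with the most reads in each pathway and the highest and lowest log2 folds. Alternatives changed the thinning, scaling (edgeR 4.0.16 for TMM, median-of-ratios, spike-ins), averaging, pseudocount, read filter and cells.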

Additional observations from a re-analysis of the deposited data

Results flagged for a closer look

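For 10 of the 38 members past the filter, 1 of the 9 CD150+CD48- cells stood far above the others in thinned reads, by a gap rule (Dixon). The rate at which chance meets the rule, about 1 group in 20, does not hold for counts that are mostly 0, and a gene read in 1 cell of the group meets it by construction, as for Fancd2, Fancf, Rad51c, Atm and Polq. In B9 these were Mre11a with 312 reads (the next cell had 2), Polq with 65, Fanci with 13 (the next had 1), Rad51c with 5 and Fancd2 with 4, and the other 8 cells had no read of Polq, Rad51c or Fancd2. In A8 they were Rbbp8 with 155 reads and Fancf with 48, in B11 Atm with 60 and Fancm with 17, and in A10 Chek2 with 228. Of the 10 members, 5 stood out in the same cell, B9, which also had reads of more members than any other CD150+CD48- cell.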

How the results depend on the processing

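The median log2 fold of the members stayed below 0 under each alternative run, and moved from -1.08 to -2.09 per ERCC spike-in read, where the median of all genes was -0.93. The 20 members at least 2-fold lower became 13 with a pseudocount of 10 CPM, 24 with the mean of log2 CPM over cells, 27 per ERCC read and 17 to 21 with 1 cell left out. The 4 higher became 2 per ERCC read, 0 with the mean of log2 CPM over cells, 9 in cells of letters B and D (23.7%, beside 23.4% of all genes there), and 0 to 6 with 1 cell left out, 0 of them without B4. Cells of letters A and C turned the log2 fold of Fancb to -2.47, Palb2 to -4.29, Ung to -2.57 and Prkdc to 0.37, and those of letters B and D turned Fancl to 1.49. Both sets also changed the mix of CD150- cells: every C cell had high red cell markers, and all those with low ones carry D. The set of letters A and C leaves out B4. The mean of log2 CPM turned Brca2 to -0.23 and Ung to -0.046, and spike-in scaling turned Ung to -0.16. With 1 cell left out, Fancl ranged from -2.20 to 0.038 without C9, Palb2 from -0.47 to 3.62 and Ung from -1.45 to 2.17. The cause was not tested, beyond the fewer cells used. Leaving out A10 and A11, added after seeing the data, gave 19 lower and 4 higher members. No paired analysis was possible because the codes of the groups share no replicate. A gene read in no cell of a group may be missed at this depth.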
